A study of Danio rerio with 15 samples.

Results

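The transcripts described here were chosen for high levels at the middle doses of an exposure series. Scaled to the library total, their counts were higher at 10 and 50 μg/l of dibutyl phthalate (DBP) than at 0 and 100 μg/l. These were the ends of the series, and the control of letter B was not used for the choice. A transcript was taken when its lowest value among the 6 libraries at 10 and 50 μg/l was above its highest value among 5 libraries at 0 and 100 μg/l, and when the mean of the 6 was at least 1.2 times the mean of the 5. Values were CPM, that is the estimated count divided by the library total and multiplied by 1e+06. A mean of at least 1 CPM over 14 libraries and a length under 9000 bases were also required. Of the 46488 transcripts in the table, 25977 met the limits on level and length and are called expressed transcripts below, and 157 met the whole rule. They are called bell-shaped transcripts, a name for the rule and not for a fitted curve. A further condition, that the lowest library at 10 to 100 μg/l should not lie above every library at 0 and 5 μg/l, removed 0 transcripts.

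The libraries came from zebrafish (Danio rerio) of the wild type AB strain, as whole embryos at the protruding-mouth stage. DBP was given at 5, 10, 50 or 100 μg/l in fish water without a solvent for 120 h from the 256-cell stage, and the controls at 0 μg/l were kept in fish water in which DBP was under the detection limit of 3 μg/l. Each library held RNA of a pool of 10 embryos, and each of the 5 doses had 3 libraries marked by replicate letters: B, D and E at 0 μg/l, A, B and E at 5 μg/l, A, B and C at 10 μg/l, A, B and D at 50 μg/l, and A, C and E at 100 μg/l. The titles and treatment labels give 50 μg/l as the fourth dose, whereas the protocol text gives 30 μg/l, and the titles were followed.

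DBP is a plasticiser that leaches from polymers into water, and it is known as a disruptor of endocrine signalling. Responses that rise and then return along a dose series are called bell-shaped or biphasic, and they are a familiar feature of hormone-like chemicals. Retinoic acid is a morphogen that patterns the hindbrain, somites, heart and fins of the embryo, and it acts through nuclear receptors that pair with retinoid X receptors. Its level is kept in bounds by the Cyp26 enzymes, which break it down, and cyp26a1 is itself a well-known target that retinoic acid induces.

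One control stood apart. The labels mark the control of letter D as the outlier, whereas the rule leaves out the control of letter B, so 14 libraries with 2 controls were analysed here and control B is given beside the results it touches. When control B was added to the low libraries, 41 transcripts met the rule and 40 of them were among the 157. Of the other 117, control B was at or above the lowest middle-dose library in 114, and 3 kept the separation but missed the limit on fold or level. Libraries at 10 and 50 μg/l held 20.1 to 26.2 M counts each, against 17.2 to 27.99 M at 0 and 100 μg/l. The count-weighted mean transcript length was 2064 to 2224 bases at 10 and 50 μg/l, against 1976 to 2065 bases at 0 and 100 μg/l, so it moved with the sides of the rule apart from a narrow overlap, and its part in the result was not tested. Since the RNA came from whole embryos, fewer cells that express a transcript and less of it per cell cannot be told apart.

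These transcripts were selected on their CPM at 10, 50, 0 and 100 μg/l, so these values are a description and carry no test. The separation that the rule asks for was uncommon in either direction. Of the expressed transcripts, 168 (0.647%) had all 6 libraries at 10 and 50 μg/l above all 5 at 0 and 100 μg/l, and 11 of these missed the fold minimum. The opposite pattern, with the middle doses lowest, was met by 212 (0.816%), and 154 of these also differed by the same fold. In TPM, which is also scaled for transcript length, 291 of 20741 transcripts (1.4%) had the 6 libraries above the 5, and 130 of the 157 kept the separation. The rule therefore took a similar number of transcripts with a trough as with a peak, and nothing is read from the count of 157 against this background. The count also changed when a single library was left out: 672 transcripts qualified without the 100 μg/l library of letter A, 401 without the 50 μg/l library of letter D, 321 without the 10 μg/l library of letter C and 263 without control D. Leaving out a library also loosens the rule, since fewer values must be held apart. Higher counts therefore follow in part from this, and how much each library added was not tested.

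**Figure D1:**
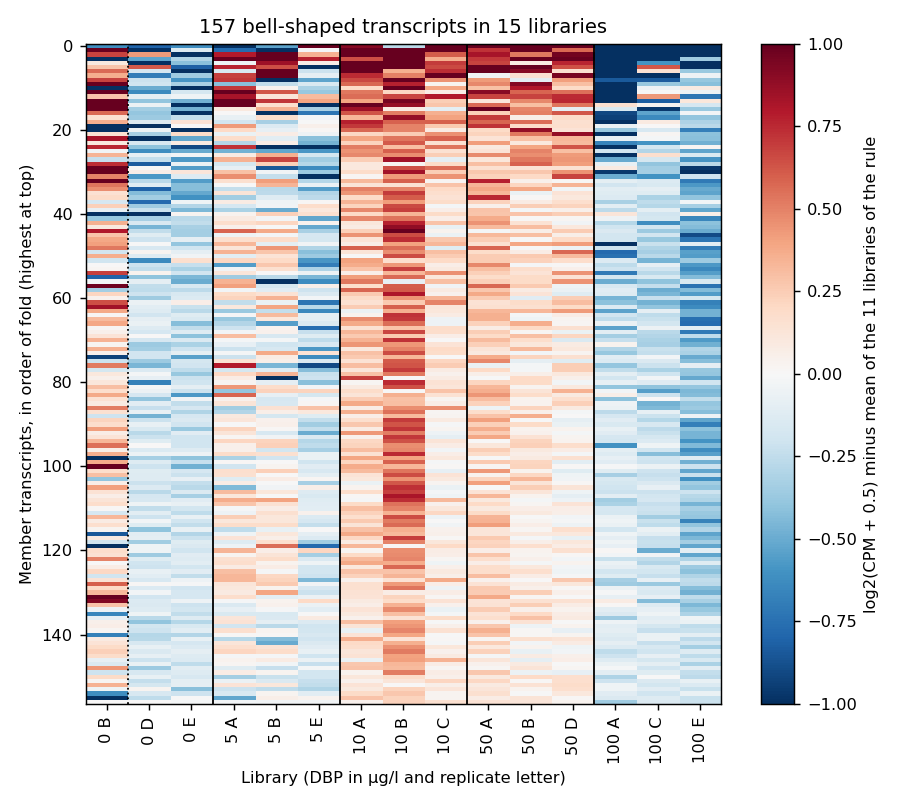
Level of the 157 bell-shaped transcripts (rows) in each of 15 libraries (columns, low to high dose), as log2(CPM + 0.5) minus the mean of the 11 libraries that the rule used, with colours saturating at 1 in either direction. The 10 μg/l library of letter B is the strongest column, the 100 μg/l library of letter E is the lowest most often, and control B, left of the dotted line, is higher than the other controls in most rows.

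Most of these transcripts differed by a modest amount. The ratio of the mean at 10 and 50 μg/l to the mean at 0 and 100 μg/l had a median of 1.44, with quartiles of 1.33 and 1.61 and extremes of 1.202 and 17.01. A ratio under 1.5 was found in 96 transcripts, 44 lay between 1.5 and 2, 13 between 2 and 5, and 4 at 5 or more. The 2 nearest inside the fold minimum had ratios of 1.202 and 1.211, and the 2 nearest outside had 1.192 and 1.194. The gap itself was narrow: the lowest library at 10 and 50 μg/l was a median of 1.047 times the highest at 0 and 100 μg/l. It was less than 1.1 times in 132 transcripts and at least 1.2 times in 11, of which 4 kept the separation with control B.

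Ratios of 2 and more occurred mostly among transcripts with few reads, although most transcripts with few reads had lower ratios. The 17 with a ratio of at least 2 had a median of 3.52 CPM, and 10 of them lay under 5 CPM, with a highest level of 29.99 CPM. The 96 with a ratio under 1.5 had a median of 12.9 CPM, and 22 of them lay under 5 CPM. Salmon, the program that assigned the reads, splits reads that fit several transcripts, and a count that is not a whole number shows that it did so. Such counts occurred in 16 of the 17 and in 56 of the 96. Among all 157, 102 (65%) had one in at least 1 library, against 61.1% of the expressed transcripts, a share near the background. The 17 were not set beside other transcripts of like level. How much of a ratio comes from the division of reads among related transcripts was not tested.

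**Figure D2:**
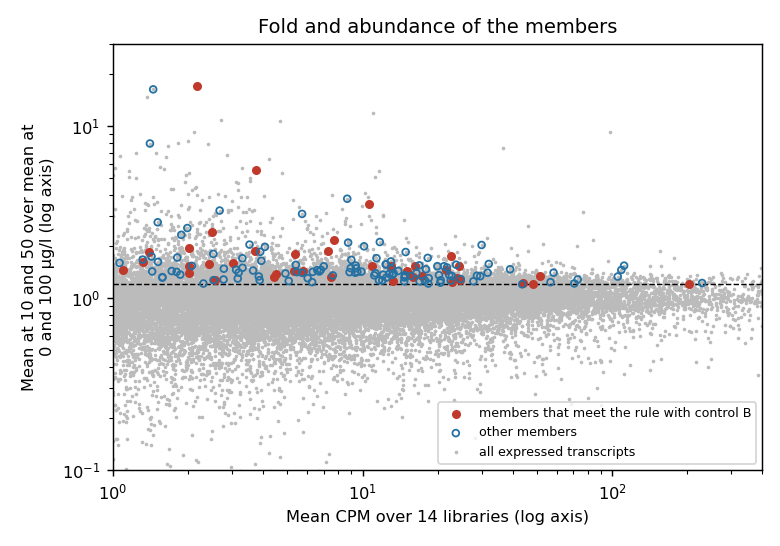
Ratio of the mean CPM at 10 and 50 μg/l to that at 0 and 100 μg/l (vertical, log axis) against the mean CPM over 14 libraries (horizontal, log axis). Red points are the 40 bell-shaped transcripts that also meet the whole rule with control B among the low libraries, open blue points the other 117, grey points the expressed transcripts within the axes, and the dashed line the fold minimum of 1.2; the ratios of 2 and more lie mainly at low CPM.

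In level and size the bell-shaped transcripts spanned a wide range. Their mean ran from 1.06 to 229 CPM with a median of 9.54 CPM, against a median of 8.83 CPM for the expressed transcripts. Their median length was 1530 bases, with a range of 114 to 8601 bases, against 1314 bases. Transcripts of 2000 bases or more made up 36.9% of them (58 of 157), against 28.5% of the expressed transcripts. A count of 0 occurred in at least 1 of the 14 libraries in 14 of them (8.92%), against 9.15% of the expressed transcripts. In each of the 14 transcripts the zeros lay at 0, 5 or 100 μg/l, which follows from the rule for the 10 and 50 μg/l libraries. A count of 0 allows up to 3 counts.

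The libraries did not contribute equally to the peak. The summed level of the 157 transcripts was 2897 to 3812 CPM in the 6 libraries at 10 and 50 μg/l, with a median of 3049 CPM, against 2068 to 2365 CPM in the 5 libraries at 0 and 100 μg/l, with a median of 2314 CPM. On the log2(CPM + 0.5) scale, the median transcript stood 0.48, 0.77 and 0.35 above the mean of the 5 low libraries in the 10 μg/l libraries of letters A, B and C. It stood 0.52, 0.39 and 0.33 above it in the 50 μg/l libraries of letters A, B and D. The library of letter B at 10 μg/l thus lay well above the rest, and it was the highest of the 14 libraries in 99 transcripts (63.1%), against 22.9% of the expressed transcripts. The rule bars the 5 low libraries from being highest, so a higher share in another library follows in part from the choice. At the low end, the 100 μg/l library of letter E was the lowest of the 14 in 60 transcripts (38.2%), against 12.2% of the expressed transcripts. None of the 6 libraries at 10 and 50 μg/l can be lowest under the rule, so this share too follows in part from the choice.

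Averaged by dose, the peak was at 10 μg/l in 123 transcripts, at 50 μg/l in 32 and at 5 μg/l in 2. The minimum was at 100 μg/l in 100 transcripts, at 0 μg/l in 45 and at 5 μg/l in 12. In plain CPM, the median expressed transcript was also lower at 50 than at 10 μg/l (log2 fold -0.09) and at 100 than at 0 μg/l (-0.07). In edgeR with TMM scaling, 49 of the 157 were higher at 50 than at 10 μg/l, against 32 in plain CPM. At 100 against 0 μg/l 79 were higher, against 49 in plain CPM. Peaks and minima were not counted over the expressed transcripts. The counts of peaks and minima also depended on single libraries. Without the 10 μg/l library of letter B the peak was at 10 μg/l in 81 and at 50 μg/l in 68, and without the 100 μg/l library of letter E the minimum was at 100 μg/l in 78 and at 0 μg/l in 68. Both alternatives were chosen after seeing the data.

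**Figure D3:**
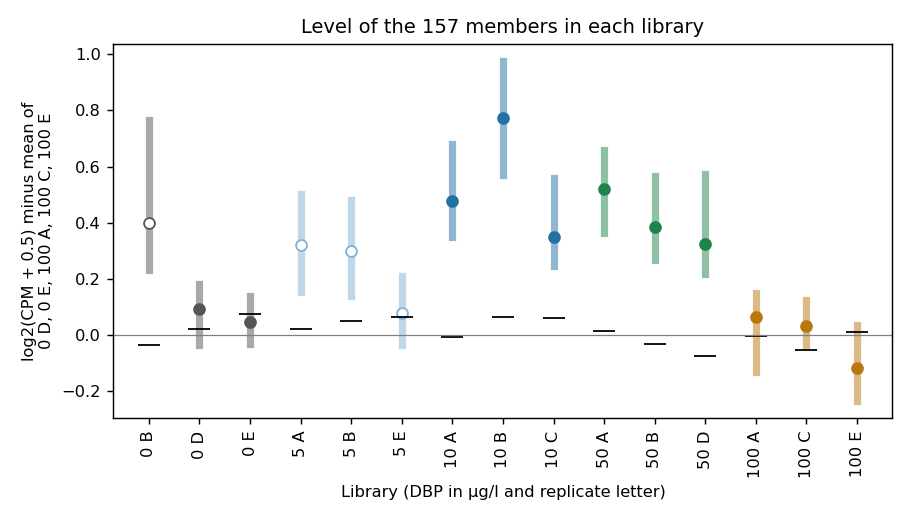
Median (point) and quartiles (bar) over the 157 bell-shaped transcripts of log2(CPM + 0.5) minus the mean of the 5 low libraries, for each library from 0 to 100 μg/l. Open points are libraries that the rule did not use, and black dashes give the median of the expressed transcripts; the 5 μg/l libraries of letters A and B, at 0.32 and 0.30, are near the lowest of the 6 middle-dose libraries, and that of letter E, at 0.08, is near the controls D and E.

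The deposited tables list Ensembl transcript identifiers and do not pair them with gene names. In the text and supplements used here, 1 of the 157 identifiers is paired with a gene name, and gene groups among the others were not analysed here. This was cyp26a1 (ENSDART00000041728.7, 1479 bases), which encodes the retinoic acid-degrading enzyme introduced above. Its counts were whole in all 14 libraries. The level of cyp26a1 was 20.01, 21.8 and 19.6 CPM at 10 μg/l (letters A, B and C) and 19.5, 18.2 and 17.7 CPM at 50 μg/l (A, B and D). It was 15.7 and 14.1 CPM in controls D and E and 15.0, 14.4 and 13.0 CPM at 100 μg/l (A, C and E). The lowest library at the middle doses was 1.13 times the highest at the ends, the 19th widest gap of the 157, while the ratio of 1.35 ranked only 112th. Control B, at 15.1 CPM, lay with the other controls, so that cyp26a1 was among the 40 transcripts that met the whole rule with control B.

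At 5 μg/l, which the rule did not use for it, cyp26a1 stood at 16.4, 19.0 and 17.5 CPM (A, B and E), above each of the 3 controls and overlapping the 50 μg/l libraries. By dose its mean was 14.9 ± 1.15 CPM at 0 μg/l (SD, n = 2), 17.6 ± 1.34 CPM at 5 μg/l, 20.5 ± 1.14 CPM at 10 μg/l, 18.5 ± 0.911 CPM at 50 μg/l and 14.1 ± 1.04 CPM at 100 μg/l (SD, n = 3 each). In edgeR's quasi-likelihood test with Benjamini-Hochberg adjustment over all transcripts tested, cyp26a1 did not pass the threshold of 0.05 at 5 against 0 μg/l (log2 fold change 0.26, SE 0.11, unadjusted p = 0.0349, adjusted p = 1). The controls used in that contrast were among the libraries chosen as low, and the value rested on them: the log2 fold change was 0.14 without control E and 0.38 without control D, with an edgeR adjusted p of 1 in both. Neither did it pass at 50 against 10 μg/l (log2 fold change -0.08, SE 0.10, edgeR adjusted p = 1) or at 100 against 0 μg/l (-0.01, SE 0.11, edgeR adjusted p = 0.995). None of these contrasts compared the middle doses with the ends, so the peak of cyp26a1 was not tested by them. The paper reports that its trend test selected cyp26a1 over the doses, but that no curve could be fitted to it. From inspection of the plotted values, the paper proposes a bell-shaped response for cyp26a1.

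The related retinoid transcripts that the study's text pairs with identifiers did not meet the rule. The transcript of cyp26b1 (ENSDART00000110347.3), another enzyme that breaks down retinoic acid, had 20.9 to 27.3 CPM at 10 and 50 μg/l, against 19.9 to 27.5 CPM at 0 and 100 μg/l, a ratio of 1.04. The transcript of cyp26c1 (ENSDART00000077809.5), the remaining member of this enzyme family, had 7.72 to 10.2 CPM at the middle doses, against 7.33 to 8.94 CPM at the ends, a ratio of 1.09. For rxraa (ENSDART00000080481.6), which encodes a retinoid X receptor, the ranges were 5.34 to 9.97 CPM and 5.57 to 11.2 CPM in the same order, with a ratio of 0.951. The groups overlapped for all 3. The paper reports a sensitive downregulation of rxraa, with a curve fitted over the doses. The mean of rxraa was 10.4 CPM at 0 μg/l (controls D and E) and 9.60 CPM at 5 μg/l. It was 8.55, 6.74 and 6.49 CPM at 10, 50 and 100 μg/l. The contrasts here compared single doses and did not test a trend. The difference nearest to a call among the 4 retinoid transcripts was that of rxraa at 100 against 0 μg/l, with a log2 fold change of -0.60 (SE 0.18) and an edgeR adjusted p of 0.266. It passed the threshold only in DESeq2 (adjusted p = 0.0181), and under the other alternatives run its adjusted p was 0.192 to 0.773.

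**Figure D4:**
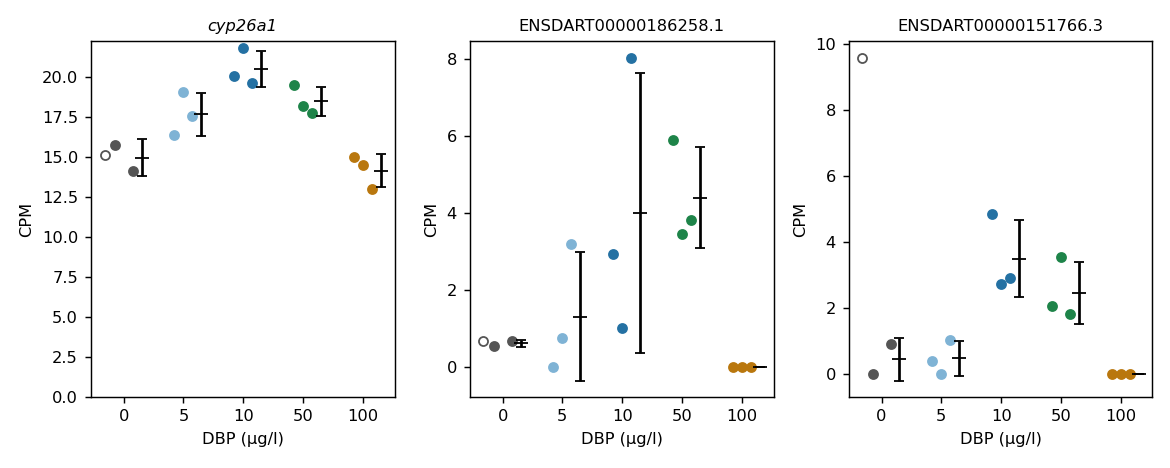
CPM of cyp26a1 and of the 2 bell-shaped transcripts with the greatest ratios, by DBP dose from 0 to 100 μg/l. Points are libraries, the open point is control B, and the bar is the mean ± SD without control B. The level of cyp26a1 peaks at 10 μg/l with little spread, whereas the others vary several-fold within some of the doses.

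The greatest ratios belonged to a pair of transcripts that could not be named here. ENSDART00000186258.1 (2514 bases, ratio 17.01) was at 2.94, 1.03 and 8.05 CPM at 10 μg/l (A, B and C) and at 5.91, 3.48 and 3.82 CPM at 50 μg/l (A, B and D). It was at 0.549 and 0.687 CPM in controls D and E and at 0 in each of the 3 libraries at 100 μg/l. At 5 μg/l it was at 0, 0.764 and 3.19 CPM (A, B and E), and control B had 0.693 CPM, so that it kept the separation with control B. Its lowest estimated count at the middle doses was only 21.9, against a highest of 17.8 at the ends, and the counts were not whole in 10 of 14 libraries.

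ENSDART00000151766.3 (1188 bases, ratio 16.3) had the widest gap of the 157, at 1.98 times. It was at 4.86, 2.74 and 2.92 CPM at 10 μg/l (A, B and C) and at 2.06, 3.55 and 1.81 CPM at 50 μg/l (A, B and D). Control D and all 3 libraries at 100 μg/l were at 0, and control E was at 0.914 CPM. Control B, however, had 9.59 CPM, more than any of the 6 middle-dose libraries. At 5 μg/l its level was 0.408, 0 and 1.04 CPM (A, B and E), so that the 5 μg/l libraries of this transcript lay with the low doses. Its counts were not whole in 9 of 14 libraries.

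The profile at 5 μg/l differed from one transcript to the next. The transcript with the most reads of the 157, with a mean of 229 CPM and whole counts throughout, had 244 to 269 CPM at 10 μg/l and 252 to 270.2 CPM at 50 μg/l, against 211 and 225 CPM in controls E and D and 190.2 to 235 CPM at 100 μg/l. Its 5 μg/l libraries had 187 to 208 CPM, below both of these controls, while control B had 270.1 CPM. In contrast, the transcript with the fourth greatest ratio (5.55) had 6.18, 6.47 and 4.08 CPM at 5 μg/l (A, B and E). These lay among the values of 2.96 to 7.26 CPM at 10 and 50 μg/l and above the 0 to 1.68 CPM at 0 and 100 μg/l. Both of these transcripts were singled out after their values had been seen.

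Over the 157 transcripts, the mean at 5 μg/l lay between the mean at 0 μg/l and the lower of the means at 10 and 50 μg/l in 116 (73.9%). It was at or below the mean at 0 μg/l in 22 and at or above the lower of the middle-dose means in 19. This split was not counted over the expressed transcripts. It follows in part from the choice of low and high libraries, so nothing is read from it. The 3 libraries at 5 μg/l disagreed, however. The library of letter A was above the highest of the 5 low libraries in 107 transcripts (68.2%), that of letter B in 102 (65%) and that of letter E in 41 (26.1%). Among the expressed transcripts the shares for the same libraries were 16%, 18% and 15.2%. The 5 low libraries were chosen as low for the bell-shaped transcripts, so a higher share in any other library follows in part from the choice. All 3 libraries at 5 μg/l were above controls D and E in 43 transcripts (27.4%), against 10% of the expressed transcripts, and below all 6 middle-dose libraries in 28 (17.8%), against 2.93%. These shares too follow in part from the choice of low and high libraries.

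These 3 libraries also differed in the measures that moved with the sides of the rule. Their summed levels of the 157 transcripts were 2699, 2691 and 2351 CPM for letters A, B and E, and their count-weighted transcript lengths were 2149, 2103 and 2024 bases. The library of letter E thus resembled the libraries at 0 and 100 μg/l in both. The part of transcript length in this was not tested.

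In the 157 transcripts, control B was nearer to the middle-dose libraries than controls D and E were. Controls D and E were chosen as low and control B was not, so this follows in part from the choice. Control B was above the highest of the 5 low libraries in 122 transcripts (77.7%), against 21.6% of the expressed transcripts. It was below all 6 middle-dose libraries in 43 (27.4%), against 17.5% of the expressed transcripts. The median transcript was 0.40 above the mean of the low libraries in control B, on the log2(CPM + 0.5) scale, compared with 0.09 and 0.04 in controls D and E. Its summed level of the 157 transcripts, 2946 CPM, lay within the range of the middle doses, whereas its count-weighted transcript length, 2045 bases, lay within that of 0 and 100 μg/l.

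The 40 transcripts that met the whole rule with control B had a median ratio of 1.497 with all 15 libraries, from 1.23 to 13.1. In the other 117 the median ratio was 1.32 once control B was counted, and control B was above all 6 middle-dose libraries in 26. The 40 and the 117 were divided by their level in control B, so these differences follow from the division. Without control B the median ratios were 1.46 in the 40 and 1.42 in the 117. With the 3 controls, 47 of 26397 transcripts (0.178%) had all middle-dose libraries above both ends before any fold minimum, and 49 (0.186%) had them below. Among the 40, the mean at 5 μg/l was above the mean of controls D and E in 37, and among the 117 in 98. Controls D and E were again among the libraries chosen as low.

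Replicate letters recur between doses, and the labels call them biological replicates. On the sides of the rule, letter B occurred only among the middle-dose libraries and letter E only among the low ones, so that dose and letter cannot be told apart for these. Within a letter, the median transcript was higher at the middle doses throughout, on the log2(CPM + 0.5) scale. The difference was 0.41 for letter A (10 and 50 over 100 μg/l), against 0.00 for the expressed transcripts. It was 0.29 for letter C (10 over 100 μg/l), against 0.10, and 0.27 for letter D (50 over 0 μg/l), against -0.10. These contrasts were used by the rule and are given as a description. For letter B, whose control the rule did not use, it was only 0.15 (10 and 50 over 0 μg/l), against 0.03. Both middle-dose libraries of letter B were above control B in 58 transcripts (36.9%), against 35% of the expressed transcripts, a share near the background.

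The same letters could be set against 5 μg/l. Both middle-dose libraries were above the 5 μg/l library in 99 transcripts (63.1%) for letter A, against 36.6% of the expressed transcripts, and in 96 (61.1%) for letter B, against 30.8%. The middle-dose libraries were chosen as high, so these shares follow in part from the choice.

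The rule did not compare 5 with 0, 50 with 10 or 100 with 0 μg/l, and these contrasts were fitted over 32350 transcripts with edgeR. They are not independent of the choice, since every library at 0, 10, 50 and 100 μg/l in them was used by the rule and those on each side of it were held apart from the other side. The counts among the 157 are therefore a description, given beside those of all transcripts tested, and nothing is read from them. All 157 passed the filter on low counts. The first, 5 against 0 μg/l, compared the lowest dose, on the way to the peak, with the controls. It called 1 transcript of all tested at an adjusted p under 0.05 (0.00309%) and 0 of the 157. At an unadjusted p under 0.05 there were 6 of the 157 (3.82%), against 2.23% of all tested. The fitted log2 fold change was above 0 in 138 (87.9%), against 51.8%, and its median was 0.22. In plain CPM the median fold was 1.15, or 0.20 on the log2 scale with quartiles of 0.09 and 0.32, and it was 0.049 on this scale with control B included. The share above 0 is given as a description, since controls D and E had been chosen as low. DESeq2 called 156 of all tested (0.482%) and limma 5 (0.0155%), and 0 of the 157 were among them, whereas without control E edgeR called 24 (0.0714%), of which 2 were bell-shaped and higher.

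**Figure D5:**
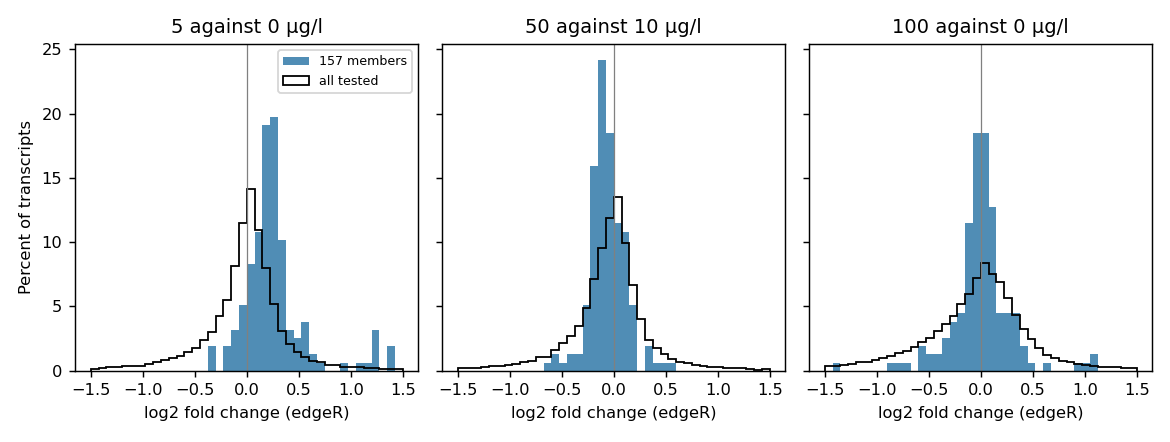
Distribution of the edgeR log2 fold change for 5 against 0, 50 against 10 and 100 against 0 μg/l, with the 157 bell-shaped transcripts filled and all tested transcripts outlined. The filled distribution lies mostly above 0 for 5 against 0 μg/l (median 0.22), slightly below 0 for 50 against 10 μg/l (median -0.08) and around 0 for 100 against 0 μg/l (median 0.00).

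The second contrast, 50 against 10 μg/l, compared the doses on the high side. It called 0 of all transcripts tested (0%) and so 0 of the 157. At an unadjusted p under 0.05 there were 1232 transcripts (3.81%), of which 0 were bell-shaped. All libraries in this contrast had been chosen as high, so this too is a description. DESeq2 called 133 transcripts (0.411%) and limma 4 (0.0124%), and 0 of the 157 were among them. The fitted log2 fold change was above 0 in 49 of the 157 (31.2%), against 45.9% of all tested. In plain CPM the median fold was 0.903, or -0.15 on the log2 scale with quartiles of -0.23 and -0.03, against -0.09 for the expressed transcripts. Without the 10 μg/l library of letter B the median was -0.01. The fitted fold change was then above 0 in 95 of the 157, against 15654 of all 32271 tested. The side of 0 on which most of the 157 lay in the edgeR fit thus changed when that library was left out. In plain CPM the median of the expressed transcripts was not computed without it. The cause was not tested.

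The third contrast, 100 against 0 μg/l, compared the ends of the series. It called 23 transcripts (0.0711%), 18 higher and 5 lower, and 0 of the 157. At an unadjusted p under 0.05 there were 10 of the 157 (6.37%), against 11.2% of all tested. All libraries in this contrast had been chosen as low, so these shares are a description. The fitted log2 fold change was above 0 in 79 (50.3%), against 49.9%. Without the 100 μg/l library of letter E it was above 0 in 104 of the 157, against 15954 of all 32140 tested. In plain CPM the median fold was 0.952, or -0.07 on the log2 scale, the same as the -0.07 of the expressed transcripts, and it was -0.23 with control B included. DESeq2 called 1174 of all tested (3.63%), with 2 of the 157 among them, both lower at 100 μg/l. These included ENSDART00000186258.1 (DESeq2 adjusted p = 0.0199, edgeR adjusted p = 0.337), which had few reads and was at 0 in each library at 100 μg/l. With limma 60 were called (0.185%), with 0 of the 157 among them. Without control E edgeR called 44 (0.131%), of which 3 were bell-shaped (2 higher and 1 lower), and without the 100 μg/l library of letter E it called 45 (0.14%), of which 1 was (lower). With 2 controls and 3 libraries per dose, a p that misses the threshold does not show that the levels at both ends were alike.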

How the data were processed

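RNA was sequenced as poly-A-selected single reads from 15 pools of zebrafish embryos. The authors trimmed the reads with Trimmomatic and quantified them with Salmon 1.5.1 on the zebrafish reference transcriptome. They deposited estimated counts per transcript, not scaled for depth or length, and TPM values, which sum to 1e+06 per library. Counts were read from the deposited table of all samples. Decimal commas in the per-sample files, which were used for length and TPM, were read as decimals. The authors' exclusion of 1 control was followed as far as the rule gives it (control B), and the labels mark control D.

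CPM was computed from the column sums. The bell-shaped transcripts and the comparisons were chosen with earlier results of these data known. For edgeR 4.0.16 (quasi-likelihood, robust, TMM, filterByExpr by dose, 14 libraries, dose as a factor), estimated counts were rounded to whole numbers. The p-values were adjusted by Benjamini-Hochberg over all tested transcripts, with a threshold of 0.05. Its recovery of known changes was checked on simulated counts. The p-values measure the spread between these pools. The depth was 17.2 to 27.99 M counts per library, and 2 controls and 3 libraries per exposed dose limit the precision.

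Alternatives were DESeq2 1.42.0, limma 3.58.1 on log2(CPM + 0.5), other scalings and filters, TPM in place of CPM, a replicate block, all 15 libraries and leaving out each library. For limma, CPM was computed with library sizes from median-of-ratios factors in place of the library totals. The medians with all 15 libraries were added after seeing the data. A count was taken as whole within 0.0005. The rule for names took the transcripts that could be matched to a symbol, and otherwise the first 2 by ratio, by identifier. The reference tables pair gene identifiers, not transcript identifiers, with symbols, so gene lists, promoters and cell type markers were not analysed here.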

Additional observations from a re-analysis of the deposited data

Results flagged for a closer look

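The control of letter B was left out of the rule and of the tests. In this library 122 of the 157 bell-shaped transcripts (77.7%) were above the highest of the 5 libraries at 0 and 100 μg/l that the rule used, against 21.6% of the expressed transcripts. The 5 libraries were chosen as low for these transcripts and control B was not, so the higher share follows in part from the choice. The cause was not tested.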

How the results depend on the processing

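The number of bell-shaped transcripts, 157, moved to 254 in TPM in place of CPM (89 shared), to 61 at a fold minimum of 1.5, and to 41 with control B added (40 shared). In TPM the level minimum was a mean of 1 TPM. Of the 157, 130 kept the separation in TPM and all 157 kept a ratio of at least 1.2. The number of bell-shaped transcripts ran from 155 to 672 with each library left out, which also loosens the rule. It was 233 with TMM scaling (130 shared), 168 with no fold minimum, 106 at a minimum of 5 CPM and 160 without the length limit. At 5 against 0 μg/l, 1 transcript was called by edgeR, 156 by DESeq2, 5 by limma, 0 with all 15 libraries and 1 to 24 with each library left out. At 50 against 10 μg/l, edgeR called 0, DESeq2 133 and limma 4, and edgeR called 1 without TMM, 1 with median-of-ratios factors, 1 with all 15 libraries and 0 to 8 with each library left out. At 100 against 0 μg/l, edgeR called 23, DESeq2 1174 and limma 60, with 15 to 45 as each library was left out. Leaving out control D or E left 1 control, which is assumed to vary like the other groups. The median log2 fold of the 157 was 0.049 at 5 against 0 μg/l and -0.23 at 100 against 0 μg/l with all 15 libraries, against 0.20 and -0.07 without control B. With each library left out it ran from 0.15 to 0.27 at 5 against 0 μg/l, from -0.24 to -0.01 at 50 against 10 μg/l and from -0.11 to -0.00 at 100 against 0 μg/l. For cyp26a1 the call was the same under all 21 alternatives in each contrast, with edgeR, DESeq2 or limma adjusted p from 1 to 1, from 0.836 to 1 and from 0.783 to 1, and its sign at 100 against 0 μg/l was positive in 2 of 21. The cause of these changes was not tested.

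With the replicate letter as a block, edgeR called 0 transcripts at 5 against 0 μg/l, 0 at 50 against 10 μg/l and 0 at 100 against 0 μg/l. The letters were not taken as pairing the libraries, since not every same-letter pair deviated together: of 14 same-letter pairs, 9 had a correlation of deviations over 0.1 (range -0.108 to 0.327, median 0.12), against 18 of 64 pairs of other letters (median -0.05), and 2 of 14 libraries correlated best with a library of their own letter.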
